A study of Mus musculus with 48 samples.

Results

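A total of 7 libraries of mouse skin labelled competent telogen were compared with each other: 2 from the chin, 3 from the ventral side and 2 from the dorsal side. They were taken by their labels from the table of the skin domains, which holds 43 of the 48 libraries of the series, and no measured value was used to choose them. The table lists 46983 genes, and 17797 of them, those that reached 0.5 FPKM in 2 or more of the 7 libraries, were tested. FPKM counts fragments per length of transcript and per fragments mapped, so that levels are given per length. All 7 libraries are total RNA of whole skin of C57BL/6 mice, with no transgene, deletion or treatment in the labels, and were made as full-length cDNA that was cut and tagged by a transposase, without strand. The study profiled chin, ventral and dorsal skin at 6 hair cycle stages, and asked whether the faster cycles of chin and ventral hair go with other molecular dynamics than the dorsal cycle. The ages, the sex and any pooling of the mice are not given in the sources used here, and replicates are separate libraries that no source ties to separate mice, so that p-values measure the spread between these libraries, which may be technical.

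A hair follicle grows through anagen, regresses in catagen and rests in telogen, when its stem cells lie quiet in the bulge above the dermal papilla and only a dead club hair is kept. Early telogen is refractory, since BMP ligands from the follicle and the surrounding skin hold the stem cells back. Later telogen is called competent, because BMP signalling has faded and WNT signals from the dermal papilla or from growing neighbours can start anagen. The study gives the label competent to the earlier telogen it sampled and refractory to the early part of the next one. These labels therefore do not mark successive phases of the same telogen. In anagen the matrix builds the shaft from hair keratins and keratin-associated proteins inside an inner root sheath, layers that a resting follicle does not make.

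The labels were first compared with the genes that define the stages. In chin and ventral competent telogen the 12 hair shaft keratins had mean levels of 6.53 to 6.83 on the log2(FPKM + 1) scale, below every other labelled stage of their own domain. The 20 cell cycle genes in the same libraries, at 4.71 to 5.09, were far above the 2.52 to 2.79 of the chin and ventral refractory telogen libraries. Dorsal competent telogen stood apart from both, with 8.89 and 8.92 for the hair shaft keratins and 3.83 and 3.85 for the cell cycle genes. The dorsal refractory telogen libraries were at 8.47 and 8.53 for the shaft keratins and at 2.47 and 2.49 for the cell cycle genes. The early anagen groups differed widely in the same genes. Dorsal early anagen had the lowest shaft keratin mean of all groups, 5.44, with a cell cycle mean of 5.22, and ventral early anagen a cell cycle mean of 2.36, as low as refractory telogen. Krt34 and Krt84, shaft keratins, had means of 10.98 and 0.19 FPKM in dorsal early anagen, and Mki67, a proliferation marker, of 13.2 there and of 1.40 in ventral early anagen. None of the 7 libraries showed the low cell cycle level of the refractory telogen libraries. The inner root sheath genes were at 8.58 and 8.71 in chin competent telogen, above the 7.67 to 8.25 of chin refractory telogen. In ventral skin they were at 8.21 to 8.37 against 8.75 and 9.44, and in dorsal skin at 9.63 and 9.64 against 9.23 and 9.26. Hair matrix transcription factors were at 5.34 to 5.63 in the 7 libraries, against 3.97 to 5.13 at refractory telogen. Melanocyte genes were at 3.40 to 3.98, against 1.40 to 1.80.

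**Figure D1:**
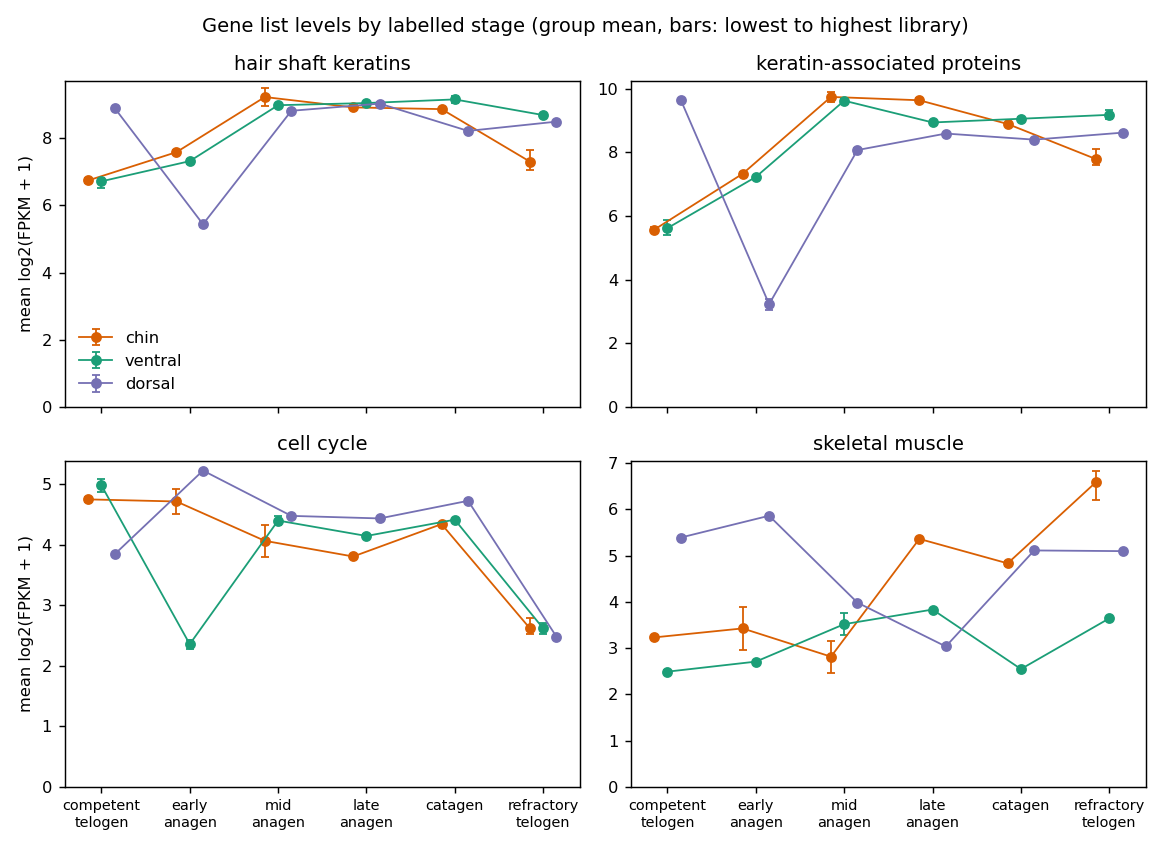
Mean log2(FPKM + 1) of 4 gene lists (vertical axes) at the 6 labelled stages (horizontal axis) in chin, ventral and dorsal skin. Points are group means and bars run from the lowest to the highest library; in dorsal competent telogen the shaft keratins stood at 8.91 against 6.75 in chin and 6.72 in ventral skin.

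The 2 libraries labelled dorsal competent telogen also lay as close to another group as to each other. Across the 17797 genes they correlated with the 2 libraries labelled chin late anagen at 0.980 to 0.984, as high as with each other (0.981), and with the other dorsal libraries less well, at 0.958 to 0.964 for late anagen and 0.953 to 0.958 for refractory telogen. Chin replicate 2 likewise correlated at 0.975 with a chin early anagen library and at 0.973 with its own replicate, and the nearest library outside its group for ventral replicate 1 was one of dorsal early anagen (0.956). The squared differences of the 2 dorsal competent telogen libraries from the chin late anagen libraries were 1.45 to 1.68 times counting noise in the median gene. This was below the 2.17 between the chin late anagen libraries themselves. The squared differences of the same 2 dorsal libraries from the ventral competent telogen libraries were 14.7 to 18.2 times counting noise. Hoxb7, a trunk Hox gene, had mean levels of 0.14 to 0.44 FPKM in the other 5 chin groups and of 7.83 FPKM in chin late anagen. Which of these labels holds cannot be told apart from the values, so that every result on dorsal skin below is one on the libraries labelled dorsal competent telogen. The 2 dorsal libraries differed from each other by 1.14 times counting noise, less than the 2.11 of the chin pair and the 2.01 to 2.48 of the ventral pairs. They are not identical, with 15450051 and 12062631 estimated fragments, and counts with the pair taken as 1 sample stand beside the main counts. Depth, estimated from what 1 fragment adds to the FPKM of a gene, was 8336240 to 15450051 fragments in the 7 libraries. Ddx3y, a Y-linked gene, was listed at 0 in all 7, and Xist, an X-linked gene, at 7.74 to 18.2 FPKM. Uty, another Y-linked gene, reached 0.5 FPKM in 2 or more of the 7.

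The sequences at the start sites of 6 genes are shown because large differences below, in shaft genes and skeletal muscle genes, fall on genes whose promoters often share short letters. Each runs from 250 bases before to 50 bases after the RefSeq start on GRCm38.p6, 5′ to 3′ along the gene. TATAAA, the letters of a TATA box, was searched on both strands and stands in capitals in the shaft genes. It was found in 41 of 50 promoters of keratin-associated proteins (82.0%), 5 of 7 of hair shaft keratins (71.4%) and 7 of 10 of inner root sheath genes (70.0%). Cell cycle genes had it in 0 of 17, all 32851 promoters of the table in 13.6% and all genes tested in 8.61%. The letters were not particular to lists that were higher in dorsal skin. They stood in 5 of 12 promoters of interfollicular epidermis genes (41.7%), a list mostly lower there, and in 24.0% of those of skeletal muscle genes. CAGCTG, the letters of an E-box, reads the same on both strands and stands in capitals in the muscle genes. It was found in 12 of 25 promoters of 21 skeletal muscle genes (48.0%) and in 16.3% of all promoters. Interfollicular epidermis genes had it in 33.3%, inner root sheath genes in 30.0%, hair shaft keratins in 0.0% and all genes tested in 15.9%. The matches are letters and not measured sites. Krt31 (chr11:100050502-100050801, minus strand), Krt34 (chr11:100041505-100041804, minus strand), Krtap6-3 (chr16:89083774-89084073, plus strand), Krtap22-2 (chr16:89010710-89011009, minus strand), Ckm (chr7:19410844-19411143, plus strand) and Acta1 (chr8:123894726-123895025, minus strand) read as follows.
Krt31: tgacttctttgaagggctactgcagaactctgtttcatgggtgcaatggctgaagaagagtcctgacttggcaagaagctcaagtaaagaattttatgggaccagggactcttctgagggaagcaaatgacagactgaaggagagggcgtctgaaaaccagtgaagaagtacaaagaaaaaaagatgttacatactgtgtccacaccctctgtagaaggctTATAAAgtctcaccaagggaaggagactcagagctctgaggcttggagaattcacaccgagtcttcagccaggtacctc
Krt34: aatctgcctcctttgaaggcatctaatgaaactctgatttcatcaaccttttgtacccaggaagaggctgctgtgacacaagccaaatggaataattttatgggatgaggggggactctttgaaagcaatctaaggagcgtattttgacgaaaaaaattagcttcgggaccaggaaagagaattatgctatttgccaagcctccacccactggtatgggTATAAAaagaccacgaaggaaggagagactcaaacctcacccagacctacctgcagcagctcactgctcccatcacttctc
Krtap6-3: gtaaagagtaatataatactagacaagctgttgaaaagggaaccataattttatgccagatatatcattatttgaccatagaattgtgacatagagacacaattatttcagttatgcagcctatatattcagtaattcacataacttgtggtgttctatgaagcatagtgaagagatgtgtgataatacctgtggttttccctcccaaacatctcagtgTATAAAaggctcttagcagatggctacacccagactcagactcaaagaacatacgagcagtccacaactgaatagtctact
Krtap22-2: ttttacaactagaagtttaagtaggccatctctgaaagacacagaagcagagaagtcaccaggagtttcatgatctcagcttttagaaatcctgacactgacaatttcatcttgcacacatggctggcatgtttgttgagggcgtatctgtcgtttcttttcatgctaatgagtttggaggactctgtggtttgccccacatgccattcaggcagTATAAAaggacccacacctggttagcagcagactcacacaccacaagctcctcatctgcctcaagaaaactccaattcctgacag
Ckm: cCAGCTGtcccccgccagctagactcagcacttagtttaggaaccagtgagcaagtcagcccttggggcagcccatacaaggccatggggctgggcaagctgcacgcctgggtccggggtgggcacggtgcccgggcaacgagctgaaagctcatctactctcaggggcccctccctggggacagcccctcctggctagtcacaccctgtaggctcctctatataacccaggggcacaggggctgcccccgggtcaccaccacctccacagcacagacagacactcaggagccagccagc
Acta1: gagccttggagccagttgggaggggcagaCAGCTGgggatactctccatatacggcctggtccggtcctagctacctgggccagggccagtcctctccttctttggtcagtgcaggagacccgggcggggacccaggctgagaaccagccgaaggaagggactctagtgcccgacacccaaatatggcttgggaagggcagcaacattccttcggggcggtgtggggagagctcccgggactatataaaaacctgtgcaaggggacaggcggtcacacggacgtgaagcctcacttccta

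Many genes differed among the domains, and the direction of most calls depended on how the libraries were scaled. With limma on log2(FPKM + 1) and Benjamini-Hochberg adjustment at 0.05, 10227 of the 17797 genes (57.5%) differed in some way among the 3 domains. Ventral over chin, 2740 genes were higher (15.4%) and 1350 lower (7.59%). Dorsal over chin, 1845 were higher (10.4%) and 5117 lower (28.8%), and dorsal over ventral, 1993 were higher (11.2%) and 7574 lower (42.6%). The median gene moved by 0.08, -0.25 and -0.34 on the log2 scale in these 3 comparisons. When each library was instead scaled by the median of ratios, which sets the median gene near 0, ventral over chin gave 2143 higher (12.0%) and 2199 lower (12.4%), dorsal over chin 3178 (17.9%) and 2245 (12.6%), and dorsal over ventral 4200 (23.6%) and 3578 (20.1%). The share of higher calls went from 67.0% to 49.4%, from 26.5% to 58.6% and from 20.8% to 54.0%.

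These counts depended on single libraries, since chin and dorsal skin have 2 each. Ventral over chin fell from 4090 to 1460 genes without chin replicate 1 and to 1490 without chin replicate 2. Dorsal over chin went from 6962 to 3621 without chin replicate 1, to 3511 without dorsal replicate 1 and to 3236 without dorsal replicate 2, and dorsal over ventral from 9567 to 6197 and 6111 without dorsal replicate 1 and 2. The count over all 3 domains went to 6598 and 6466 without the same dorsal libraries. With the dorsal pair as 1 sample, 3124 genes differed dorsal over chin and 5975 dorsal over ventral. Ventral over chin, fitted on the 5 chin and ventral libraries alone, 2933 of 17213 genes differed, 1988 higher and 945 lower.

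**Figure D2:**
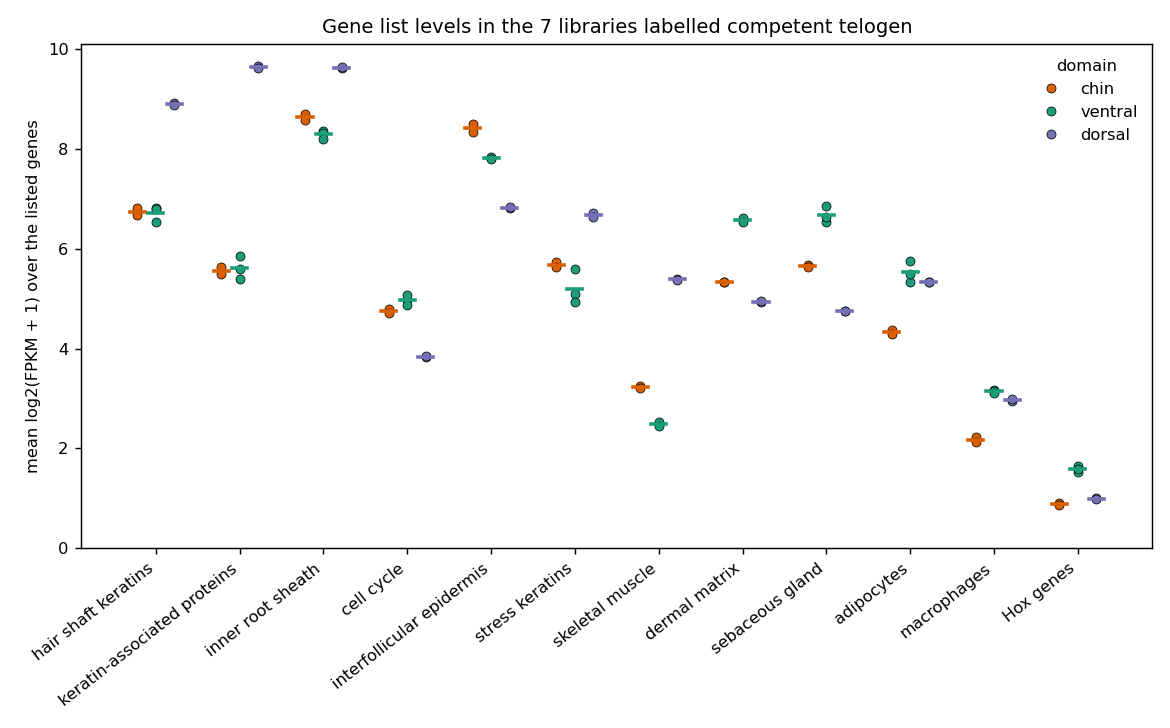
Mean log2(FPKM + 1) (vertical axis) over the genes of 12 lists (horizontal axis) in each of the 7 libraries; points are libraries and lines group means. Dorsal libraries stood highest for the shaft, inner root sheath, stress keratin and skeletal muscle lists, and ventral libraries for dermal matrix, sebaceous gland and Hox genes.

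Genes of the hair shaft were much higher in the dorsal libraries and nearly level between chin and ventral skin. Of the 12 hair shaft keratins, which form the filaments of the shaft, 11 were higher dorsal over chin and 12 dorsal over ventral, with medians of 1.90 and 2.04 against -0.25 and -0.34 over all genes. Ventral over chin, 1 was higher and 1 lower, or 1 and 4 by the median of ratios, with a median of -0.09. Krt34, a type I hair keratin (chr11:100037347-100041554), was measured at 61.9 and 59.0 FPKM in chin, 61.6, 63.3 and 59.5 in ventral and 965 and 947 in dorsal libraries. The dorsal values lay far above the other 5, which overlapped, and the difference was 3.96 ± 0.07 (SE) over chin and 3.94 ± 0.07 over ventral skin (limma adjusted p = 1.7e-06 and 1.42e-06), against 0.02 ± 0.07 ventral over chin (adjusted p = 0.831). Krt31, its neighbour in the type I cluster, read 372 and 359, then 364, 337 and 272, then 1067 and 1057 FPKM in the same order, a difference of 1.54 ± 0.14 dorsal over chin (adjusted p = 0.000468). Krt86, a type II hair keratin, was the member that was higher in ventral than in chin skin, at 147, 156 and 127 against 90.5 and 76.9 FPKM (0.77 ± 0.11, adjusted p = 0.00633), and stood at 1079 and 1063 in dorsal skin. Krt84, a type II hair keratin known from the cuticle and the tongue, was nearly absent outside dorsal skin, with 0.08 to 0.39 FPKM in the chin and ventral libraries against 45.8 and 44.3 in dorsal skin.

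Keratin-associated proteins, which cross-link those filaments, showed some of the largest differences between the domains. They were listed by symbol after values had been seen, and their near-identical copies can share reads, so that single members are uncertain. Of the 56 tested, 53 were higher and 1 lower dorsal over chin, with a median of 4.42, and 55 were higher and 1 lower dorsal over ventral, with a median of 3.20. Ventral over chin they split, with 20 higher, 16 lower and a median of 0.10. Their sum took 13.0% and 13.1% of all FPKM in the dorsal libraries and 0.676% to 0.896% in the chin and ventral ones. Krtap22-2, chosen after its values were seen, stood at 19363 and 19210 FPKM in dorsal skin, at 323 and 372 in chin and at 192, 271 and 222 in ventral skin. Krtap6-3 (chr16:89084015-89084534) read 938 and 909 in dorsal, 3.56 and 1.82 in chin and 4.62, 2.87 and 3.73 in ventral libraries, differences of 8.01 ± 0.25 and 7.62 ± 0.23. Krtap20-2 was listed at 0 in both chin libraries, at 1.02 to 1.66 FPKM in ventral skin and at 321 and 313 in dorsal skin. Krtap19-5 was among the 16 that were lower ventral over chin, at 43.9 and 44.8 against 3.39, 17.4 and 4.05 FPKM, a difference of -2.61 ± 0.58 (limma adjusted p = 0.0223) that was no longer called without chin replicate 1, chin replicate 2 or ventral replicate 1.

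The inner root sheath, which moulds the growing shaft, followed the shaft in dorsal skin and was lower in ventral than in chin skin. Of its 11 genes, 8 were higher and 1 lower dorsal over chin (median 1.04), 9 were higher and 1 lower dorsal over ventral (median 1.38), and 1 was higher and 5 lower ventral over chin (median -0.30). Krt25, a sheath keratin, read 2019 and 1779 FPKM in chin, 983, 1018 and 929 in ventral and 2222 and 2190 in dorsal libraries. The ventral values were below all others (-0.96 ± 0.08 ventral over chin, limma adjusted p = 0.00114), and dorsal over chin Krt25 gave 0.22 ± 0.09 (adjusted p = 0.105). Padi3, which citrullinates trichohyalin, stood at 118.1 and 117.5 in dorsal against 37.4 and 41.1 in chin skin (1.56 ± 0.12, adjusted p = 0.000219). Among the 10 transcription factors of the hair matrix, 4 were higher and 1 lower dorsal over chin, and 8 and 1 by the median of ratios. Hoxc13, which drives hair keratin genes, was level, with 62.6 and 64.0 in chin, 52.5 to 62.2 in ventral and 67.1 and 71.1 FPKM in dorsal skin (0.12 ± 0.10 dorsal over chin, adjusted p = 0.369, and 0.46 when scaled by the median of ratios, where it was called). Msx1 was the lower one, at 26.7 and 24.7 in dorsal, 59.5 and 49.5 in chin and 108, 103 and 82.6 in ventral skin.

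Genes of dividing cells ran the other way. All 20 cell cycle genes were lower dorsal over chin (median -0.94) and dorsal over ventral (median -1.06), and 18 and 20 of them by the median of ratios. Ventral over chin, 5 were higher and 15 were not called, with a median of 0.27. Top2a, the topoisomerase of replicating cells (chr11:98992943-99024189), read 53.6 and 54.2 FPKM in chin, 43.3, 52.7 and 48.9 in ventral and 22.1 and 22.2 in dorsal libraries. The dorsal values lay below all others, by -1.24 ± 0.11 against chin and -1.08 ± 0.10 against ventral skin (limma adjusted p = 0.000386 and 0.000275). Aurkb, a mitotic kinase, stood at 7.71 and 7.85 in dorsal against 25.04 and 22.8 in chin and 34.3, 35.1 and 27.4 in ventral skin. In whole skin fewer cells of a type and less RNA per cell cannot be told apart, here and in every list below.

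Stem cell and dermal papilla genes were mostly lower in the dorsal libraries. Of 12 stem cell genes 8 were lower and 0 higher dorsal over chin, and likewise 8 and 0 dorsal over ventral. By the median of ratios it was 6 lower and 1 higher in both. Among all genes tested, 28.8% were lower dorsal over chin and 42.6% dorsal over ventral, or 12.6% and 20.1% by the median of ratios. Krt15, a keratin of bulge and basal cells, read 2513 and 2557 FPKM in chin, 2504, 2111 and 2224 in ventral and 664 and 649 in dorsal libraries (-1.95 ± 0.10 dorsal over chin, limma adjusted p = 4.51e-05). Lgr5, the WNT co-receptor of the lower bulge and hair germ, was 12.4 and 11.7 in chin and 7.06 and 7.44 in dorsal skin (-0.66 ± 0.12, adjusted p = 0.00589). Its dorsal over ventral difference of -0.33 turned to 0.08 by the median of ratios and to 0.06 by quantile normalization. Postn, a matrix protein of the follicle surroundings, was highest in ventral skin, at 85.1, 103.2 and 101.6 against 40.4 and 37.8 in chin and 37.5 and 33.5 in dorsal skin. Of 11 dermal papilla genes, 8 were lower and 2 higher dorsal over chin, with the same counts dorsal over ventral (6 and 2, and 7 and 2, by the median of ratios). Corin, a protease of the papilla that shapes coat colour, was one of the higher ones, at 1.23 and 1.2 against 0.35 and 0.34 in chin and 0.23 to 0.35 in ventral skin, all low levels. Rspo3, which amplifies WNT signals, was 1.57 and 1.38 in dorsal, 5.59 and 3.96 in chin and 7.18 to 10.4 FPKM in ventral libraries.

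The interfollicular epidermis graded from chin over ventral to dorsal skin. Of its 15 genes 11 were lower ventral over chin (median -0.47) and none higher, and 11 were lower and 1 higher dorsal over chin (median -1.53). Dorsal over ventral, 9 were lower and 1 higher (median -0.85), or 8 lower and 5 higher by the median of ratios. Flg, which encodes filaggrin of the cornified layer (chr3:93273523-93293686), read 729 and 694 FPKM in chin, 228, 290 and 280 in ventral and 65.9 and 69.2 in dorsal libraries. The 3 domains did not overlap, and the steps were -1.42 ± 0.12 ventral over chin and -3.38 ± 0.13 dorsal over chin (limma adjusted p = 0.000873 and 1.52e-05). Krt10, the keratin of the spinous layer, was 1046 and 939, then 728, 852 and 893, then 149 and 141 FPKM, so that only the dorsal fall was called (-2.77 ± 0.12, adjusted p = 2.29e-05, against -0.27 ± 0.11 ventral over chin, adjusted p = 0.122). Serpinb12, Klk14 and Skint5, a protease inhibitor, a kallikrein of desquamation and an epidermal butyrophilin-like protein, were among the 8 named genes with the largest falls dorsal over chin. Klk14 stood at 17.8 and 19.2 in chin, 5.47, 4.32 and 4.47 in ventral and 0.89 and 0.56 FPKM in dorsal skin.

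Stress keratins and their companions, of which several also line the follicle, were higher in dorsal skin, with 7 of 9 higher and 2 lower dorsal over chin (median 1.52). S100a8, a calcium-binding alarmin, read 31.4 and 27.3 FPKM in chin, 39.9, 42.5 and 35.4 in ventral and 222 and 221 in dorsal libraries (2.88 ± 0.11 dorsal over chin, limma adjusted p = 1.8e-05). Krt79, a keratin of the infundibulum and the sebaceous duct, went down instead, to 97.4 and 95.7 from 552 and 516 in chin and 563 to 654 in ventral skin.

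Skeletal muscle transcripts were higher in the dorsal libraries, as shaft genes were, but unlike those they were also lower in ventral than in chin skin. Of 26 genes, 24 were higher dorsal over chin (median 2.96) and 24 dorsal over ventral (median 4.22), with none lower, and 19 were lower and 1 higher ventral over chin (median -0.95). Ckm, the muscle creatine kinase (chr7:19404776-19422841), read 62.5 and 53.0 FPKM in chin, 29.9, 29.2 and 24.7 in ventral and 674 and 651 in dorsal libraries. The order dorsal, chin, ventral held without overlap, with 3.50 ± 0.12 dorsal over chin and -1.02 ± 0.11 ventral over chin (limma adjusted p = 1.42e-05 and 0.00235). Acta1, skeletal actin (chr8:123891769-123894751), gave 129 and 114, then 79.2, 66.5 and 65.9, then 1341 and 1335 FPKM. Tnnc2, fast troponin C, gave 119 and 108, then 63.9, 73.3 and 62.2, then 1930 and 1907. Pvalb, a calcium buffer of fast fibres, had the widest range of the 6 named, from 7.35 to 10.1 in ventral over 35.2 and 39.7 in chin to 381 and 378 in dorsal skin. The mean level of the list was 5.39 and 5.40 in dorsal competent telogen and 5.34 and 5.38 on the log2(FPKM + 1) scale in the libraries labelled chin late anagen. How much muscle each dissection held, and its part in other dorsal differences, was not tested.

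**Figure D3:**
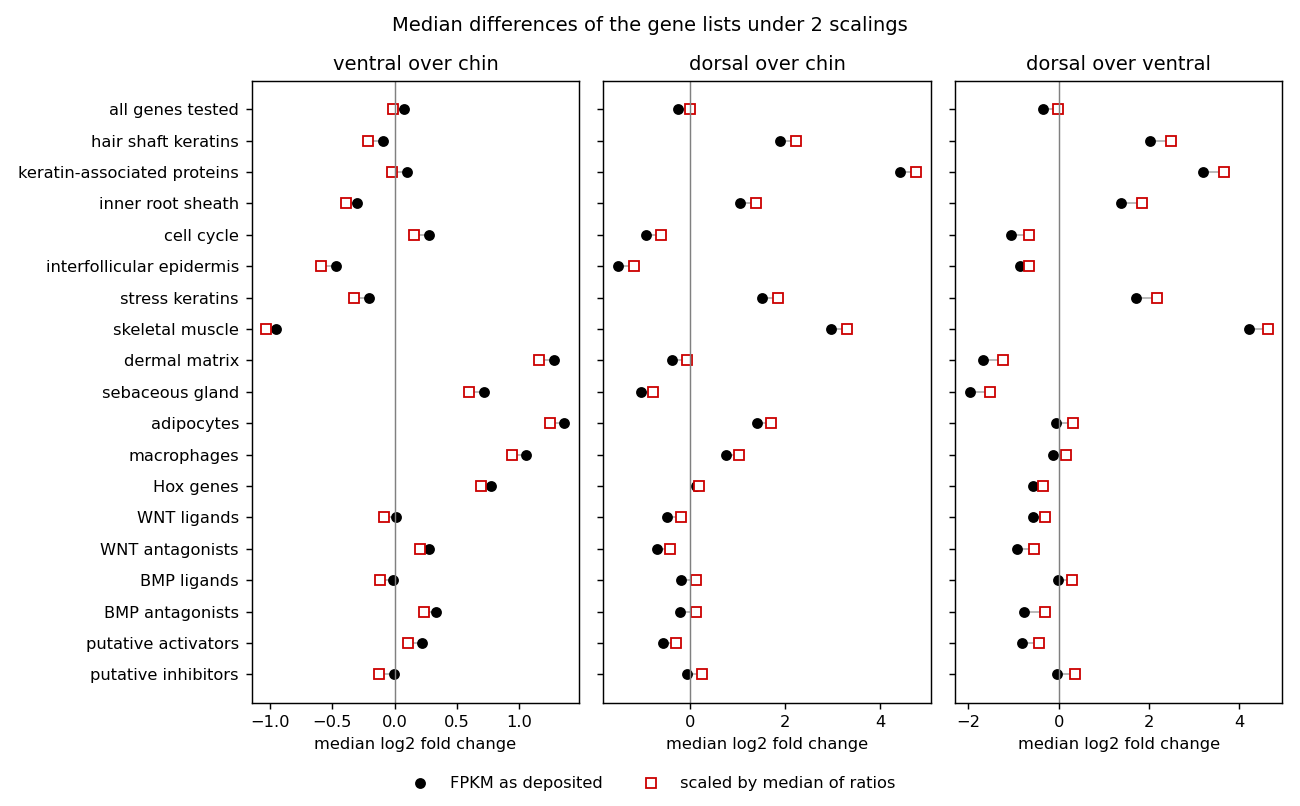
Median log2 fold change (horizontal axes) of 18 gene lists and of all genes tested (vertical axis) in the 3 comparisons of domains, from FPKM as deposited (filled circles) and scaled by the median of ratios (open squares). Dorsal over ventral, the medians of adipocytes (-0.06 to 0.32), macrophages (-0.13 to 0.15), BMP ligands (-0.02 to 0.30) and putative inhibitors (-0.04 to 0.37) crossed 0 with the scaling.

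Ventral skin was set apart by its dermis. Of 17 dermal matrix genes 15 were higher ventral over chin (median 1.28), none was lower, and all 17 were lower dorsal over ventral (median -1.67). Col1a1, the main fibrillar collagen chain (chr11:94936224-94953042), read 473 and 572 FPKM in chin, 1957, 1994 and 2192 in ventral and 337 and 333 in dorsal libraries. The ventral values were all above the rest, by 1.97 ± 0.10 over chin (limma adjusted p = 0.000293). The smaller dorsal over chin difference, -0.64 ± 0.11, was not called by the median of ratios (-0.30). Eln, elastin, rose most among the named members, at 48.8, 46.6 and 45.4 in ventral against 9.97 and 11.04 in chin and 14.4 and 13.8 in dorsal skin. Lum, a proteoglycan that binds collagen, was 176, 194 and 185 in ventral, 66.2 and 55.5 in chin and 52.9 and 53.5 in dorsal libraries. Ribosomal RNA differed in the same libraries, since Rn18s-rs5, an 18S sequence, stood at 601, 690 and 952 FPKM in ventral skin against 3732 and 3655 in chin and 3861 and 3898 in dorsal skin. Its part in the ventral results was not tested.

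Sebaceous gland genes were also highest in ventral skin. Of 15, 10 were higher ventral over chin (median 0.72), 10 were lower dorsal over chin (median -1.05) and all 15 were lower dorsal over ventral (median -1.97), or 12 by the median of ratios. Scd3, a desaturase of sebocytes (chr19:44203269-44244016), read 83.8, 47.0 and 80.2 FPKM in ventral libraries, 3.12 and 3.89 in chin and 2.71 and 2.97 in dorsal ones. It rose by 3.94 ± 0.25 ventral over chin (limma adjusted p = 0.000481), whereas dorsal over chin gave -0.23 ± 0.28 (adjusted p = 0.544). Awat1 and Awat2, which esterify wax alcohols, formed a graded series, although the dorsal over chin fall of Awat2 was not called without dorsal replicate 1. Awat1 was 108, 62.3 and 84.0 in ventral, 17.7 and 19.2 in chin and 5.47 and 5.65 in dorsal skin. Hsd3b6, a steroid dehydrogenase, behaved alike at 29.8, 24.5 and 30.0, 7.28 and 5.61, and 1.18 and 1.18 FPKM in the same order.

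Fat genes were lowest in chin skin. Of 21 adipocyte genes, 19 were higher and 1 lower ventral over chin (median 1.36), and 15 were higher and 3 lower dorsal over chin (median 1.40). Adipoq, the adipokine adiponectin (chr16:23146536-23158028), read 58.4 and 52.7 FPKM in chin, 191, 131 and 149 in ventral and 182 and 183 in dorsal libraries. Chin lay below both other domains (1.46 ± 0.16 and 1.70 ± 0.17, limma adjusted p = 0.00206 and 0.000755), which overlapped each other. Car3, a carbonic anhydrase abundant in fat and muscle, was 161 and 155 in chin, 654 to 876 in ventral and 1122 and 1099 in dorsal skin. Between dorsal and ventral skin the direction of the list turned with the scale, from 4 higher and 9 lower to 9 higher and 4 lower by the median of ratios.

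Myeloid genes followed the fat. Of 19 macrophage genes 14 were higher and 1 lower ventral over chin, 12 higher and 2 lower dorsal over chin, and dorsal over ventral 1 higher and 5 lower, or 6 and 2 by the median of ratios. C1qa, a complement subunit that macrophages secrete, read 16.0 and 14.3 FPKM in chin, 62.4, 59.9 and 54.0 in ventral and 76.2 and 70.7 in dorsal libraries (1.89 ± 0.10 and 2.20 ± 0.11 over chin, limma adjusted p = 0.000287 and 3.68e-05). Among 8 mast cell genes 4 were higher and none lower ventral over chin, and Tpsb2, a mast cell tryptase, was 35.6, 28.7 and 20.8 in ventral and 22.7 and 23.9 in dorsal against 4.38 and 5.79 in chin skin. Of 24 chemokines 11 were higher and 1 lower ventral over chin, and 8 were higher and 4 lower dorsal over chin. Ccl8, which draws monocytes, rose in both, from 76.5 and 78.9 in chin to 326, 238 and 254 in ventral and 420 and 419 in dorsal libraries. Ccl21a, the chemokine of lymphatic vessels whose gene has near-identical copies, was highest in ventral skin, at 372, 293 and 275 against 45.1 and 46.6 in chin and 51.1 and 47.6 in dorsal skin.

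Hox genes record where on the body axis a skin fibroblast arose. Of 39 genes 28 were tested. Ventral over chin, 14 were higher and 3 lower (median 0.78), dorsal over chin 6 were higher and 6 lower (8 and 4 by the median of ratios), and dorsal over ventral none was higher and 16 lower (2 and 11 by the median of ratios). Over all genes 15.4% were higher and 7.59% lower ventral over chin, 10.4% and 28.8% dorsal over chin and 11.2% and 42.6% dorsal over ventral, so that the number of Hox genes called in the dorsal comparisons, 12 and 16 of 28, was near the share of all genes. The medians include Hoxc9 and Hoxc10, which were listed at 0 in both chin libraries, and their fitted values depend on the pseudocount of 1. Hoxa7 (chr6:52214491-52221854) graded through the domains, with 1.43 and 2.33 FPKM in chin, 7.61 and 6.17 in dorsal and 37.0, 42.3 and 40.4 in ventral libraries, a difference of 3.84 ± 0.16 ventral over chin and 1.47 ± 0.17 dorsal over chin (limma adjusted p = 0.000142 and 0.00145). Hoxb7 marked trunk against chin, at 0.48 and 0.40 in chin, 7.35, 17.6 and 8.41 in ventral and 9.09 and 9.41 in dorsal skin, and gave -0.15 ± 0.33 dorsal over ventral (adjusted p = 0.725).

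Several more posterior genes were highest in the ventral libraries of this stage. Hoxa9 was 20.8, 12.5 and 20.1 FPKM in ventral, 0.03 and 0.02 in chin and 0.59 and 0.14 in dorsal libraries (4.16 ± 0.25 ventral over chin, limma adjusted p = 0.0004). Hoxa10 was 6.13, 7.25 and 10.6 against 0.04 and 0.14 in chin and 0.34 and 0.38 in dorsal skin. Hoxc10, with 2.66 to 3.85 in ventral skin, was at 0.08 and 0.10 in dorsal skin. Among anterior genes, chin skin was highest for Hoxa2. Hoxa2, the selector of the hyoid arch, read 3.21 and 2.50 in chin, 0.66 to 0.86 in ventral and 0.53 and 0.41 in dorsal libraries (-1.39 ± 0.15 dorsal over chin, adjusted p = 0.000968). These levels did not follow the labelled domain through the series. Hoxa9 had a mean of 9.86 FPKM in dorsal early anagen but of 0.32 in ventral late anagen and 0.20 in ventral catagen, and Hoxa7 of 39.1 in dorsal early anagen and 3.84 in ventral catagen. Without strand, reads of a Hox gene and of the antisense RNAs of its cluster cannot be told apart.

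**Figure D4:**
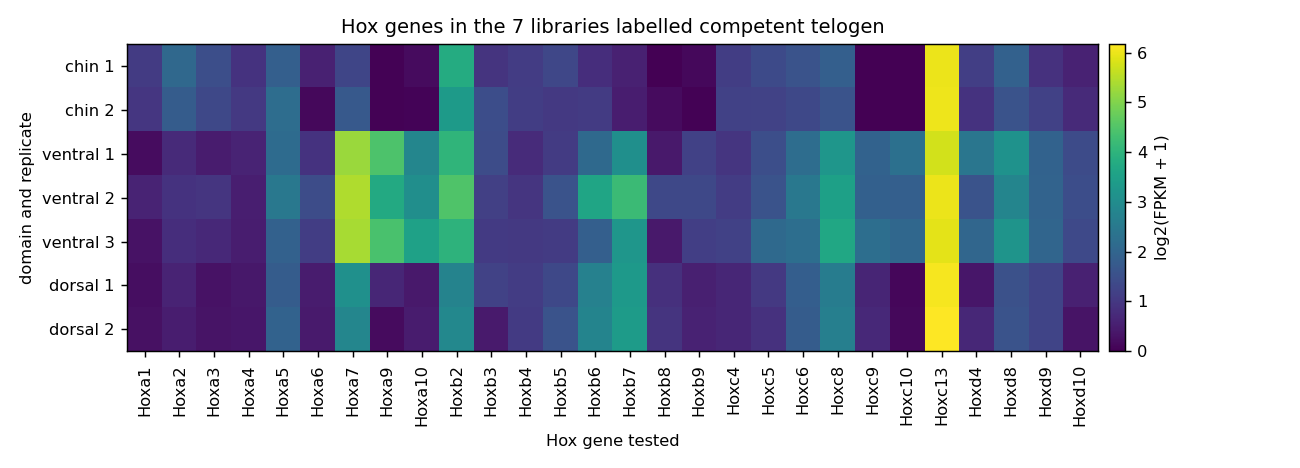
Level, as log2(FPKM + 1) by colour, of the 28 Hox genes tested (horizontal axis) in each library (vertical axis, domain and replicate). Hoxa7 and Hoxa9 were brightest in the 3 ventral libraries, Hoxb7 was dark in both chin libraries, and Hoxc13 was bright throughout.

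Other positional transcription factors were higher ventral over chin for 10 of 26 genes and lower for none, and dorsal over ventral 19 were lower and 1 higher, or 12 and 2 by the median of ratios. Over all genes 15.4% were higher and 7.59% lower ventral over chin, and 42.6% lower and 11.2% higher dorsal over ventral. Tbx3, which marks the ventral body wall, limb and mammary line, read 7.87, 8.10 and 6.73 FPKM in ventral libraries, 1.19 and 0.93 in chin and 0.87 and 0.82 in dorsal ones (2.06 ± 0.12 ventral over chin, limma adjusted p = 0.0004). Tbx15, needed for the dorsoventral coat boundary, was 6.05, 6.63 and 6.09 in ventral against 3.51 and 3.71 in chin and 3.82 and 3.84 in dorsal skin, and its dorsal over ventral difference of -0.59 was not called by the median of ratios (-0.20). At refractory telogen 0 of 25 of these factors were higher and 5 lower ventral over chin (median -0.31). Tbx15 gave -1.65 ventral over chin there, against 0.65 at competent telogen.

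The BMP pathway, which holds follicles in telogen, gave few calls among its ligands and more among its antagonists. Of the 8 ligands tested with limma, 0 were called ventral over chin and 0 dorsal over chin (1 and 0 at an unadjusted p under 0.05), and 2 were lower dorsal over ventral, Bmp4 among them. By the median of ratios 1 was lower ventral over chin, 2 were higher dorsal over chin and 4 higher dorsal over ventral, so that the sign rests on the scale. Bmp4, made by the papilla and the fat layer, read 28.4 and 29.3 FPKM in chin, 42.7, 29.3 and 32.1 in ventral and 24.5 and 25.1 in dorsal libraries. Its dorsal over ventral difference was -0.45 ± 0.16 (adjusted p = 0.0472) and was not called without ventral replicate 3, without either chin or dorsal library or by the median of ratios. Bmp2 was 13.3 and 10.0, 6.85 to 9.01, and 9.75 and 7.86 in the same order (-0.57 ± 0.18 ventral over chin, adjusted p = 0.0614). Bmp6 stayed at 0.55 to 1.43 FPKM in all 7.

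Of 13 BMP antagonists, 4 were higher and 1 lower ventral over chin, 1 was higher and 5 lower dorsal over chin (1 and 3 by the median of ratios), and none was higher and 9 lower dorsal over ventral (1 and 7). Over all genes 10.4% were higher and 28.8% lower dorsal over chin, so that the number called there was near the share of all genes. Dorsal over ventral, 42.6% of all genes were lower. Sostdc1, which blocks BMP and WNT in the follicle, read 199 and 199 FPKM in chin, 173, 171 and 173 in ventral and 52.5 and 52.3 in dorsal libraries (-1.90 ± 0.07 dorsal over chin, limma adjusted p = 1.44e-05). Grem1, a secreted BMP trap of the dermis, fell in steps from 7.90 and 7.48 in chin over 4.25, 3.86 and 3.72 in ventral to 1.46 and 1.33 in dorsal skin. Fst, which traps activins and BMPs, was 40.8 and 36.2 in chin and 16.2 and 16.7 in dorsal skin (-1.18 ± 0.10, adjusted p = 0.000337). Chrdl1 ran the other way, from 0.98 and 0.95 in chin to 3.24 and 2.78 in dorsal skin. Noggin, encoded by Nog, stayed low at 0.65 to 1.59 FPKM in all 7 libraries. Among the 9 response genes, Id3 was lower in dorsal skin at 157 and 146 against 303 and 274 in chin (-0.92 ± 0.13, adjusted p = 0.00302), and Id1 gave -0.45 ± 0.15 (adjusted p = 0.0559).

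The WNT pathway starts and feeds anagen, and its counts in dorsal skin moved with the scaling. Of 14 ligands 10 were lower and 1 higher dorsal over chin, or 3 and 1 by the median of ratios, beside 28.8% lower (12.6% by the median of ratios) over all genes, and ventral over chin 3 were higher and 2 lower. Wnt7b, an epithelial ligand, read 14.3 and 13.5 FPKM in chin, 12.9, 13.0 and 10.7 in ventral and 5.70 and 5.58 in dorsal libraries (-1.17 ± 0.12 dorsal over chin, limma adjusted p = 0.000826). Wnt16 stepped down from 5.96 and 4.12 in chin over 2.51, 1.96 and 2.19 in ventral to 0.75 and 0.72 in dorsal skin, a ventral step that was not called without chin replicate 1. Wnt6 was highest in ventral skin at 7.68, 6.56 and 6.11 against 4.33 and 4.20 in chin and 3.06 and 3.47 in dorsal skin, but ventral over chin was not called without either chin library. Wnt4 gave -0.37 ± 0.09 dorsal over ventral, and 0.06 by the median of ratios and 0.02 by quantile normalization, and was not called without either dorsal library.

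WNT antagonists were in part higher in ventral skin and mostly lower in dorsal skin. Of 13, 5 were higher and none lower ventral over chin, 3 were higher and 7 lower dorsal over chin (4 and 6 by the median of ratios), and none was higher and 10 lower dorsal over ventral (1 and 9). Wif1, a WNT trap of the follicle (chr10:121033960-121100650), read 47.2 and 46.6 FPKM in chin, 69.8, 69.2 and 68.1 in ventral and 11.1 and 10.1 in dorsal libraries, without overlap (0.55 ± 0.07 ventral over chin and -2.05 ± 0.08 dorsal over chin, limma adjusted p = 0.00481 and 1.88e-05). Sfrp1, which binds WNT proteins, was 37.3 and 41.2 in chin, 42.2 to 50.2 in ventral and 16.9 and 16.7 in dorsal skin. Sfrp2 and Sfrp4, its dermal relatives, were lowest in chin. Sfrp4 stood at 0.46 and 0.68 in chin, 12.2, 17.0 and 9.58 in ventral and 6.40 and 6.27 in dorsal libraries (3.12 ± 0.22 and 2.23 ± 0.24 over chin, adjusted p = 0.00057 and 0.000945). Of 13 WNT response genes, none was higher and 6 lower dorsal over chin (0 and 5 by the median of ratios), and none higher and 8 lower dorsal over ventral (1 and 4, with a median of -0.09). Beside both lists, 28.8% of all genes were lower dorsal over chin and 42.6% dorsal over ventral, or 12.6% and 20.1% by the median of ratios. Ccnd1, a cyclin, was 70.5 and 66.5 in chin, 62.2 to 72.6 in ventral and 17.9 and 18.2 in dorsal libraries. Axin2, the feedback target, was highest in chin at 6.42 and 7.34, against 3.57 to 4.48 in ventral and 3.20 and 3.46 in dorsal skin, and its ventral over chin difference was not called without chin replicate 2. The dermal matrix list was at 4.93 and 4.95 in dorsal, 5.33 and 5.34 in chin and 6.55 to 6.62 in ventral libraries on the log2(FPKM + 1) scale. The part of dermis, fat, muscle and shaft in the signalling genes was not tested.

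Of 22 growth factors and receptors of the FGF, EGF and IGF families, 4 were higher and 10 lower dorsal over chin, or 4 and 6 by the median of ratios, beside 10.4% higher and 28.8% lower over all genes. Dorsal over ventral, 3 were higher and 9 lower, which turned to 7 and 5 by the median of ratios. Fgf5, which ends anagen, read 1.00 and 1.10 FPKM in chin, 1.42, 1.93 and 1.71 in ventral and 10.4 and 8.85 in dorsal libraries (2.37 ± 0.14 dorsal over chin, limma adjusted p = 8.72e-05). Fgf18, which keeps stem cells at rest, was highest in chin at 3.29 and 2.56 against 0.80 to 1.31 in ventral and 0.88 and 0.61 in dorsal skin, though ventral over chin was not called without chin replicate 1. Fgf7, a papilla signal to the epithelium, was 8.33 and 7.38 in chin, 8.38 to 10.1 in ventral and 2.51 and 2.46 in dorsal skin. Igf1, an anagen factor, was lowest in chin at 8.57 and 6.60 against 18.9 to 22.3 in ventral and 15.3 and 14.9 in dorsal skin, and its dorsal over ventral difference of -0.42 turned to 0.02 by the median of ratios.

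The study had named putative activators and inhibitors of hair growth from an earlier whole-skin microarray time course. Of 232 putative activators tested, 56 were higher and 7 lower ventral over chin (median 0.22), 10 higher and 144 lower dorsal over chin (median -0.59; 18 and 84 by the median of ratios), and 7 higher and 178 lower dorsal over ventral (20 and 125). Wif1, Sostdc1 and Ccnd1 had the largest dorsal falls, together with the nuclear receptor gene Nr4a1, and Dbp, a clock output factor, rose most, to 36.7 and 33.1 FPKM in dorsal against 5.56 and 4.73 in chin skin. Wif1, a WNT antagonist, stands in the study's supplementary list of activators, whereas the study's text names it among the putative inhibitors. Of 119 putative inhibitors, 21 were higher and 26 lower dorsal over chin, a balance that went to 42 and 7 by the median of ratios, and ventral over chin 12 were higher and 18 lower. Pla2g2e, a secreted phospholipase of the hair follicle, had the largest rise, from 26.5 and 22.1 in chin and 27.0 to 31.2 in ventral to 237 and 235 FPKM in dorsal libraries (3.23 ± 0.12 dorsal over chin, limma adjusted p = 1.46e-05). Over all 17797 genes, 1845 were higher and 5117 lower dorsal over chin.

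Genes called higher than both other domains, or lower than both, were counted as setting a domain apart. Chin was set apart by 1234 genes (6.93%), 697 higher and 537 lower, ventral skin by 2663 (15.0%), 2163 higher and 500 lower, and dorsal skin by 5454 (30.6%), 1297 higher and 4157 lower. Without 1 library these counts went down to 416 for chin and 3083 for dorsal skin (both without chin replicate 1), to 973 for ventral skin (without chin replicate 2) and to 2533 for dorsal skin (without dorsal replicate 2). Counts also fell to 539 for chin without chin replicate 2, to 666 and 599 for chin without dorsal replicate 1 and 2, to 1063, 1606 and 1629 for ventral skin without chin replicate 1, dorsal replicate 1 and dorsal replicate 2, and to 2724 for dorsal skin without dorsal replicate 1. Chin skin was marked by Serpinb6d, a serine protease inhibitor with close paralogs, at 30.1 and 28.1 FPKM against 0.79 to 1.76 in ventral and 0.46 and 0.38 in dorsal libraries (-3.80 ± 0.19 ventral over chin and -4.41 ± 0.21 dorsal over chin, limma adjusted p = 0.000272 and 3.41e-05). Krt24, a type I keratin, was 17.0 and 20.7 in chin and 1.12 to 2.01 elsewhere. Dorsal skin was marked by Atp12a, a proton pump, at 24.2 and 24.5 FPKM against 0.44 to 0.61 in the other 5 libraries. Serpina3b, of another inhibitor family with near copies, was among the largest falls dorsal over ventral, from 269, 180 and 225 to 5.96 and 7.49 FPKM, with 48.1 and 54.3 in chin skin.

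Refractory telogen, which the study defines as the early part of the next resting phase, gave other domain differences. It comes after competent telogen, with anagen and catagen between them. On its own 7 libraries and 17669 genes, 2309 differed ventral over chin (13.1%), 4055 dorsal over chin (22.9%) and 629 dorsal over ventral (3.56%). There 487 were higher and 1822 lower ventral over chin, with a median of -0.22 over all genes, against 0.08 at competent telogen. Ventral over chin, 200 genes were called in the same direction at both telogens, 4.89% of the competent and 8.66% of the refractory calls, and 580 in opposite directions, 14.2% and 25.1%. Dorsal over chin, 1259 had the same direction (18.1% and 31.0%) and 670 the opposite one (9.62% and 16.5%). Dorsal over ventral, 296 had the same direction (3.09% and 47.1%) and 94 the opposite. Every call on the refractory libraries alone, here and below, rests on FPKM as deposited and was not repeated under another scaling. In 1 fit of the 14 libraries, the difference itself changed between the telogens for 5402 of 19132 genes ventral over chin (28.2%), 3914 dorsal over chin (20.5%) and 4932 dorsal over ventral (25.8%). Ventral over chin the difference was greater at competent than at refractory telogen for 4336 genes and smaller for 1066, or 2586 and 2324 by the median of ratios. Dorsal over ventral these counts were 1145 and 3787, or 2219 and 1806, and dorsal over chin 2180 and 1734, or 2398 and 1904. The dorsal totals of 3914 and 4932 went to 2391 and 2847 without dorsal refractory telogen replicate 1, to 2499 and 3085 without dorsal competent telogen replicate 1 and to 2465 and 3012 without its replicate 2. Dorsal over ventral went to 7706 without ventral refractory telogen replicate 1 and to 3245 without dorsal refractory telogen replicate 2.

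**Figure D5:**
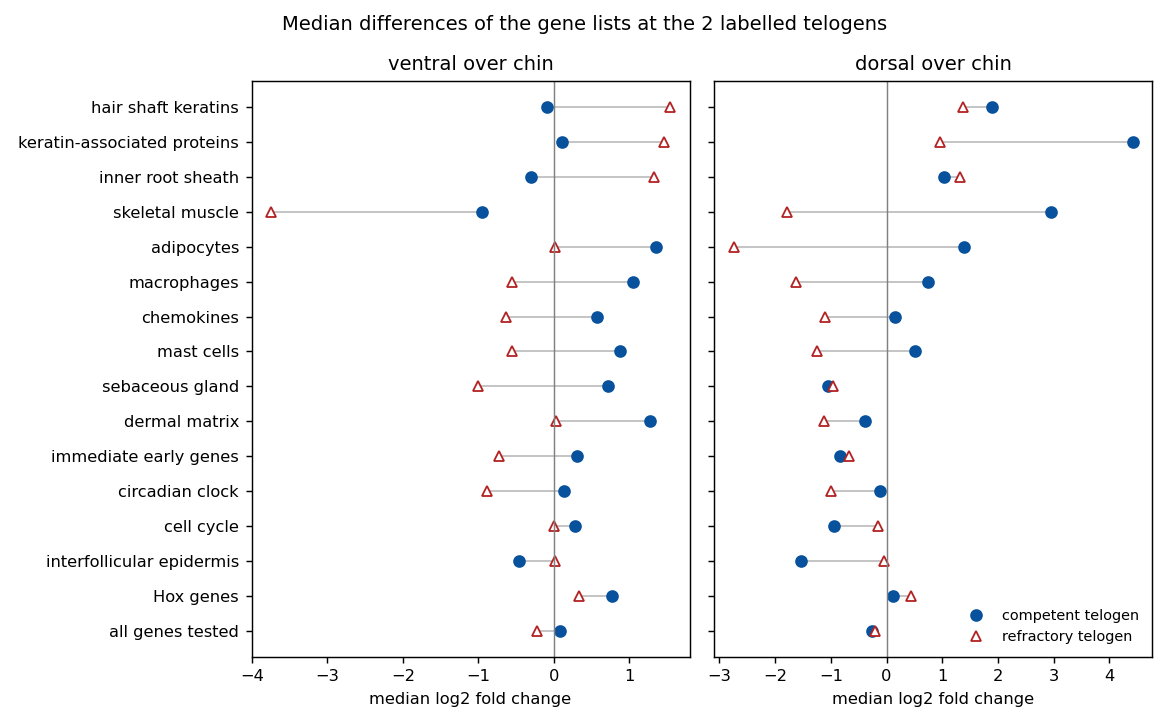
Median log2 fold change (horizontal axes) of 15 gene lists and of all genes tested (vertical axis) ventral over chin and dorsal over chin, in competent (filled circles) and refractory telogen (open triangles). Dorsal over chin, skeletal muscle, adipocyte, macrophage, chemokine and mast cell medians lay on opposite sides of 0 at the 2 telogens, and shaft and sheath medians on the same side.

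Several lists turned between the telogens, those of fat, macrophages and skeletal muscle among them. Of 21 adipocyte genes, 18 were lower and none higher dorsal over chin at refractory telogen (median -2.73), against 3 lower and 15 higher at competent telogen. Dorsal over chin, Adipoq gave -3.74 at refractory and 1.70 at competent telogen, and C1qa -2.94 and 2.20 (limma adjusted p of the change = 1e-07 and 1.7e-06). Of the skeletal muscle genes, 24 of 28 were lower dorsal over chin at refractory telogen (median -1.79), with Tnnc2 at -2.10 there and 4.07 at competent telogen (adjusted p of the change = 5.13e-07). Dorsal over chin, the major urinary proteins and the red blood cell genes turned too, from 14 of 15 and 6 of 6 higher at competent telogen to 10 of 14 and 3 of 6 lower at refractory telogen. Ventral over chin, 5 of 11 inner root sheath genes were lower at competent and 7 of 11 higher at refractory telogen, and 7 of 13 immediate early genes were higher at competent and 6 of 13 lower at refractory telogen. T cell genes kept a negative median dorsal over chin, -0.78 and -0.42. Sebaceous genes turned ventral over chin, with 8 of 15 lower at refractory telogen, and Awat2 gave -2.10 there and 2.24 at competent telogen. Hair shaft keratins were higher dorsal over chin at both telogens, 9 of 12 at the refractory one, and ventral over chin 10 of 12 were higher at the refractory (median 1.54) against 1 of 12 at the competent stage. Of the 20 cell cycle genes limma called 0 in any pair of domains at refractory telogen (0, 0 and 2 at an unadjusted p under 0.05), and of the 15 interfollicular genes 0 dorsal over chin (4 unadjusted), where Flg gave 0.21 against -3.38.

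Some genes set the same domain apart at both telogens, in the same or the opposite direction. Chin was set apart in the same direction at both by 70 genes (5.67% of the competent and 4.34% of the refractory ones), ventral skin by 43 (1.61% and 21.7%) and dorsal skin by 41 (0.752% and 9.36%). The genes that turned numbered 99 in chin, 12 in ventral and 49 in dorsal skin, so that for chin and dorsal skin more genes turned than kept their direction on FPKM as deposited. Whether this holds under another scaling was not tested. Among those of chin skin with the same direction were Serpinb6d, Krt24, Hoxa7 and Hoxb7. Serpinb6d was lower dorsal over chin by -4.41 at competent and by -4.06 at refractory telogen, and Hoxb7 higher by 2.83 and 2.33. Muscle genes made up most of the 6 named for ventral skin, with Pvalb at -2.05 and -3.43 ventral over chin. Atp12a and Sln, a calcium pump regulator of muscle, led those of dorsal skin, and Sln was at 43.4 and 44.0 FPKM against 0.34 and 0.18 in chin and 4.23 to 6.44 in ventral competent telogen.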

How the data were processed

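Whole-skin RNA of the 7 libraries was read from the table of FPKM values that the authors deposited, made with RSEM 1.2.25 on mm10 with GENCODE annotation, per the study's methods and the submitters' processing notes. A correction for batch effects is stated there too. Whether the deposited values hold that correction was not tested, and depth was estimated from steps of whole fragments in them, so that batch remains a limit. No counts were used, so the tests ran on log2(FPKM + 1) with limma 3.58.1 (R 4.3.3), letting the prior variance follow the mean level, with 1 coefficient per domain and Benjamini-Hochberg adjustment over all 17797 genes that reached 0.5 FPKM in 2 or more libraries. Differences are on that log scale, which understates the change of low genes. A fragment's worth in FPKM gave the depth of each library, 8336240 to 15450051 fragments. Refractory telogen was fitted alone and, for the change between stages, in 1 model of 14 libraries. Alternatives were a pseudocount of 0.1, no filter, a minimum of 5 FPKM, quantile normalization, median of ratios, TPM rescaling, a constant prior variance, all 43 skin libraries, a replicate block and each library left out; taking the dorsal pair as 1 sample and the 5 chin and ventral libraries alone were added after seeing the data. The members and the gene lists were chosen with earlier results of these data known. Genes were named by a rule: up to 6 members per list, all tested members of the BMP, WNT, Hox and positional lists, the 8 largest called differences per pair and direction with no overlap of libraries and at least 5 FPKM in the higher domain (predicted, clone-named and small RNA genes were counted, not named), 4 per direction of the study's lists and up to 6 per domain set apart at both telogens. Positions are from GENCODE vM21 (17715 gene IDs matched), promoters from RefSeq. Scripts were tested on simulated data. Python 3.11.15, numpy 2.4.6, pandas 2.3.3 and matplotlib 3.10.9 were used.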

Additional observations from a re-analysis of the deposited data

Results flagged for a closer look

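The differences between domains changed between the 2 telogens for 5402 genes ventral over chin, 3914 dorsal over chin and 4932 dorsal over ventral. The change itself was tested with limma across all genes. It is given as competent minus refractory, although refractory telogen is the later stage. Of 677 called differences of named genes, 97 were called in opposite directions at the 2 stages and changed by that test, 5 of them among the largest differences of a pair of domains and not listed at 0 in either domain. Ventral over chin, Scd3, a sebocyte desaturase, gave -2.29 at refractory and 3.94 at competent telogen, a change of 6.24 on the log2 scale. Hamp2, a hepcidin paralog, gave -0.97 and 4.39 in the same order, a change of 5.35. Krtap19-5 and Krtap19-1, shaft proteins with near-identical copies, ran the other way, with changes of -4.54 (1.93 and -2.61) and -4.04 (1.85 and -2.19). The competent call of Krtap19-5 was lost without chin replicate 1, chin replicate 2 or ventral replicate 1. Dorsal over ventral, Serpina3j, a protease inhibitor with close paralogs, gave 1.12 at refractory and -4.78 at competent telogen. This change of -5.89 rests on the libraries labelled dorsal competent telogen. The causes were not tested.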

How the results depend on the processing

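With 1 library left out, genes differing among the 3 domains numbered 6466 to 10242, ventral over chin 1460 to 4307, dorsal over chin 3236 to 7332 and dorsal over ventral 6111 to 9514. Genes that set chin apart numbered 416 to 1207, ventral 973 to 2976 and dorsal 2533 to 5582. Differences that changed between the telogens numbered 3776 to 7606 ventral over chin, 2391 to 5528 dorsal over chin and 2847 to 7706 dorsal over ventral. With the dorsal pair counted as 1 sample, an alternative chosen after seeing the data, the counts in the same order were 6309, 2828, 3124 and 5975, then 580, 1603 and 2470, and 4891, 2344 and 2872. The same sign at refractory telogen whatever its p was also counted, in place of a call there, among competent calls tested at both stages. It was found for 1114 of 3999 genes ventral over chin, 4678 of 6812 dorsal over chin and 5377 of 9330 dorsal over ventral. Calls in the same direction numbered 200, 1259 and 296. A sign alone can match by chance, and ventral over chin most signs did not match.

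Deviations of same-numbered chin and ventral libraries correlated at 0.11 and -0.11, and chin and dorsal ones at -0.01. The largest value, 0.21, was between chin replicate 2 and ventral replicate 3. In a group of 2 libraries the deviations mirror each other, so these values cannot decide whether the replicate numbers pair the libraries. With a replicate block 9004 genes differed among the domains, 3050 ventral over chin, 6178 dorsal over chin and 8686 dorsal over ventral, and 57 of 677 named calls were lost.

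Scaling set the split of higher against lower calls. The share higher was 67.0%, 26.5% and 20.8% (ventral over chin, dorsal over chin, dorsal over ventral), against 49.4%, 58.6% and 54.0% by the median of ratios and 50.4%, 45.9% and 44.3% by quantile normalization. Of the named calls 62 were lost and 8 reversed by the median of ratios: Acta2 dorsal over chin (0.0069) and, dorsal over ventral, Adgre1 (0.018), Igf1 (0.022), Lgr5 (0.084), Per3 (0.011), Bmper (0.0069), Wnt4 (0.061) and Fzd10 (0.087). By quantile normalization 64 were lost and 6 reversed, all dorsal over ventral: Lgr5 (0.062), Wnt4 (0.020), Fzd10 (0.043), Hba-a2 (-0.050), Hba-a1 (-0.039) and Mup10 (-0.035). No other alternative reversed a named call. The pseudocount, the filters, TPM rescaling, the constant prior variance and the fit of all 43 libraries lost 2 of 571 (minimum of 5 FPKM) to 49 of 677 (no filter), the 5 chin and ventral libraries alone lost 19 of 182, leaving out 1 library lost 27 to 119, and the dorsal pair as 1 sample lost 120 of 671. The causes were not tested. Depth of 8336240 to 15450051 fragments and 2 or 3 libraries per domain limit the precision for genes of low FPKM.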

Other observations

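Major urinary protein genes, which code for pheromone carriers made mainly in liver and some glands, were mostly higher in ventral and dorsal than in chin skin. They were listed by symbol after values had been seen, and their near-identical copies share reads. Of 15 tested, 10 were higher ventral over chin (median 2.23) and 14 dorsal over chin (median 3.10), with none lower. Mup10 read 32.9 and 37.9 FPKM in chin, 918, 663 and 796 in ventral and 1075 and 1065 in dorsal libraries. At refractory telogen 10 of 14 were lower dorsal over chin (median -2.40), and Mup10 gave -3.56 there. Hamp2, a hepcidin paralog, was highest in ventral skin, at 184, 119 and 148 FPKM against 7.91 and 4.71 in chin and 12.6 and 11.1 in dorsal skin. Mup7 was listed at 0 in both chin libraries.

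Clock genes gave mixed counts, with 5 of 16 higher and 2 lower ventral over chin, 3 higher and 5 lower dorsal over chin, and 2 higher and 7 lower dorsal over ventral, the last turning to 5 and 3 by the median of ratios. The numbers lower in dorsal skin were near the shares of all genes, 28.8% over chin and 42.6% over ventral skin. Dbp, a clock output factor, stood at 36.7 and 33.1 FPKM in dorsal, 5.56 and 4.73 in chin and 10.2, 8.23 and 6.78 in ventral libraries, and Arntl, a core activator, at 4.37 and 4.69, 8.71 and 9.56, and 9.91, 11.3 and 9.86. The hours of sampling are not given in the sources used here. Of 13 immediate early genes, 7 were higher ventral over chin and 10 lower dorsal over chin (7 lower and 1 higher by the median of ratios). Dusp1, a phosphatase induced by stress and growth signals, read 43.6 and 49.9 in chin, 179, 144 and 150 in ventral and 23.2 and 22.6 in dorsal skin.

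Melanocyte genes were lower than in chin in both other domains, 4 of 11 ventral over chin and 7 of 11 dorsal over chin (6 lower and 2 higher by the median of ratios), and Dct, a melanin synthesis enzyme, read 84.8 and 88.7 FPKM in chin, 52.8, 65.1 and 49.9 in ventral and 49.4 and 50.2 in dorsal libraries. Of 10 T cell genes 6 were lower and none higher dorsal over chin (5 and 0 by the median of ratios), beside 28.8% lower (12.6%) over all genes. Of 14 genes of blood and lymph vessels 7 were higher ventral over chin, and limma called 0 dorsal over chin (1 at an unadjusted p under 0.05, and 6 higher by the median of ratios). All 6 red blood cell genes tested, whose globin copies share reads, were higher dorsal over chin. Antigen presentation and Langerhans cell genes were higher ventral over chin for 5 of 8. Of 20 genes of the mitochondrial respiratory chain 5 were higher and none lower dorsal over chin (12 and 0 by the median of ratios, 4 and 5 by quantile normalization), and Cox8b, a subunit of muscle and brown fat, read 161 and 158 in dorsal, 19.97 and 28.3 in chin and 39.0, 28.7 and 33.5 in ventral libraries.

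Of 10 smooth muscle genes 4 were higher ventral over chin and 4 higher and 5 lower dorsal over chin, the last turning to 4 and 2 by the median of ratios. Of 10 Schwann cell and nerve genes 2 were higher and 2 lower ventral over chin and 3 lower dorsal over chin, near the 28.8% lower over all genes. Among 10 mammary and simple epithelium genes 5 were higher ventral over chin and 7 higher and 1 lower dorsal over chin, and Krt18, a simple epithelial keratin, stood at 21.9 and 22.6 FPKM in dorsal, 0.78 and 1.29 in chin and 2.96, 4.85 and 2.96 in ventral skin. Of 4 salivary and mucous gland genes tested 1 was higher and 1 lower ventral over chin, with the same counts dorsal over chin. Of 3 cartilage and bone genes tested, limma called 0 ventral over chin (1 at an unadjusted p under 0.05) and 2 lower dorsal over chin.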
